A study of Mus musculus with 4 samples.

Results

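Accessible chromatin was examined at 8 genes of cholesterol synthesis, Hmgcs1, Fdft1, Sqle, Lss, Cyp51, Ebp, Dhcr7 and Srebf2, in the mouse erythroblast line G1ER. Regions were merged from the peak lists of 4 ATAC-seq libraries, an assay that tags open DNA with sequencing adapters by means of a transposase. A region was taken where it overlapped the span of one of the 8 genes, or where an end of the gene was the nearest protein-coding gene end within 100 kb of the region's middle. This gave 10 of 15328 merged regions, with at least 1 region for each of the 8 genes. All 10 overlapped a gene's span, the farthest 16729 bp from a gene end, so the limit of 100 kb decided none of them. The gene set was chosen by the peak calls at Ebp, where a region was called in both knockout lists and absent from both wild-type lists, so those calls are described and not tested. The tested cells were G1ER cells with the genotype Chd7-/-, and the cells they were set against were wild-type G1ER cells, with 2 libraries of each and 50000 cells per library. In each genotype the labels give a time of 1 h for replicate 1 and of 2 h for replicate 2, and no treatment. All cells grew in the same medium with EPO and SCF conditioned media. The G1ER line was derived from Gata1-null cells and expresses a fusion of GATA1 with an estrogen receptor domain. A single code appears in the descriptions of both knockout libraries, so genotype and clone cannot be told apart, and nothing in the labels says that replicates were separate cultures. P-values therefore measure only the spread between these libraries, which may be technical. Replicate and labelled time coincide, so this spread also holds any difference between 1 h and 2 h. The same is true of the standard errors and standard deviations below.

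Cholesterol is built from acetyl-CoA through mevalonate, squalene and lanosterol, and the last enzymes of the route turn lanosterol into cholesterol. When sterols run low, SREBP2, the protein of Srebf2, is released from the membrane and enters the nucleus, where it binds sterol regulatory elements in the promoters of most of these enzymes together with NF-Y and SP1. In the erythroid lineage cholesterol is a major lipid of the red cell membrane. CHD7, the protein missing in the knockout by its label, is a nucleosome remodeller of the chromodomain helicase family.

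The lists held 12443 and 11376 nuclear peaks in knockout replicates 1 and 2, and 11084 and 12043 in wild-type replicates 1 and 2. Total read depth was unknown, and the lowest background density behind the peaks, used as a relative depth, was 1.04 and 1.01 fragments per base in the knockout libraries and 0.787 and 1.08 in the wild-type libraries. Wild-type replicate 1 had the lowest value of the 4. Chd7 itself had 0 regions in its span or linked to it, which leaves the genotype labels unchecked by these data. Of 12 erythroid marker genes, 7 had a region in all 4 libraries within 1 kb of their span, among them Gata1, Klf1, Epor, Alas2, Tfrc and Nfe2, while Tal1, Slc4a1, Hba-a1, Hbb-b1 and Lmo2 had none. Of 12 markers of other blood lineages 1 did, the megakaryocyte gene Itga2b.

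The promoter sequences below are shown to set the start of Ebp, where no peak lay in any library, beside starts that lay under a peak. Whether these sequences relate to the peak calls was not tested. They run from 250 bases before to 50 bases after an annotated start, 5′ to 3′ on the gene's strand, and come from RefSeq on GRCm38.p6. Such a window was found for 6 of the 8 genes, with 3 starts for Dhcr7 and 8 windows in all. Hmgcs1 held the highest pileup of the set, Srebf2 is the regulator, and Tm7sf2, a sterol reductase gene of the same route that is not one of the 8, held a knockout-only peak over its start, meaning one called in each knockout library and in no wild-type library (wild-type-only is the converse). Capitals mark every match, on either strand, to the words TCACNCCAC for a sterol regulatory element, CCAAT for NF-Y, GGGCGG for SP1, CACGTG for an E-box, AGATAA and TGATAA for GATA factors and TGNGGT for RUNX factors.
Ebp, chrX:8193463-8193762, minus strand: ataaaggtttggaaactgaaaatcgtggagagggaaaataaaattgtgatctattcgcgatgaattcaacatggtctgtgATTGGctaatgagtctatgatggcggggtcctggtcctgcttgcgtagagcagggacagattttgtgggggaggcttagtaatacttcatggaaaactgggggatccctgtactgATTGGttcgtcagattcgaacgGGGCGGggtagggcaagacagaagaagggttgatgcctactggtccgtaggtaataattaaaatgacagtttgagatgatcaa
Hmgcs1, chr13:119690101-119690400, plus strand: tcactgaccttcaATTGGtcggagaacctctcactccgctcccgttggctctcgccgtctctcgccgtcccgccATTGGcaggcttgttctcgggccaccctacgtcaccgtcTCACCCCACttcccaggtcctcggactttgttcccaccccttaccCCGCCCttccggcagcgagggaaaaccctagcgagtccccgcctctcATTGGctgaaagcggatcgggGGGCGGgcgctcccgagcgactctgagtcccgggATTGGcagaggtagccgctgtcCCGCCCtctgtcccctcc
Srebf2, chr15:82147019-82147318, plus strand: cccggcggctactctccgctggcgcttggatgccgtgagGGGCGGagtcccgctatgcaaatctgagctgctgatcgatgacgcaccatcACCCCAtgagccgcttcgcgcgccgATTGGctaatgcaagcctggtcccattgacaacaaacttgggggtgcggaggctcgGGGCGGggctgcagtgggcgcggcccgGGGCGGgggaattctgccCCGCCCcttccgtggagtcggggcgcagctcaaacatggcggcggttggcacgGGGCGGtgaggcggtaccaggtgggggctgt
Tm7sf2, chr19:6067801-6068100, minus strand: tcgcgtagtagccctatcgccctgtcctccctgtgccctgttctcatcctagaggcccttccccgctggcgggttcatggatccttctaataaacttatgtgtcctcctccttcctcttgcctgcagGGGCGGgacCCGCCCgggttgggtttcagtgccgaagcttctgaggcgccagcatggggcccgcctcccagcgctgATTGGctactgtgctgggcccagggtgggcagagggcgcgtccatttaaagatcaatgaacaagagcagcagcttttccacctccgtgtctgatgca

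TCACNCCAC was found in 1 of the 8 windows, that of Hmgcs1, at positions −137 to −129 from the start, and in 1.24% of all 32851 promoter windows of this length. The TGNGGT match of Hmgcs1 lies within that word. CCAAT was present in 6 of the 8 windows, against 37.4% of all windows, and GGGCGG in 7 of the 8, against 35.7%. TGNGGT was present in 5 of the 8 windows (45.8% of all) and CACGTG in 1, the second start of Dhcr7 (7.15% of all). Neither GATA word was in any of the 8, against 11.2% and 9.05% of all windows. The Ebp window held 2 CCAAT words and 1 GGGCGG word and lacked the others. It was the poorest in G and C of the 8, at 45.3%, with the median of all windows at 52.7%. The windows of Hmgcs1, Srebf2, Lss and Cyp51 had 65.7%, 68.7%, 71.0% and 64.7% G and C. The windows of the first and second starts of Dhcr7 share bases, and neither base composition nor gene class was matched in these shares, so they are a description. All windows together cover 27025 genes, of which 17491 are protein-coding, as the members are. A match is a word and not a bound site. Only exact matches were counted, so a window without a word may still hold a variant of it. In the Srebf2 window the stretch tcACCCCAt, around the marked TGNGGT match, differs from TCACNCCAC at its last base.

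Most open regions at these genes were called in both genotypes. Of the 10 regions, 8 were called in all 4 libraries (80.0%), where 56.8% of all merged regions were. Of all regions within 1 kb of a gene end, termed gene edges, 76.8% were called in all 4, and 7 of the 10 regions lay at such an edge. 1 region was knockout-only, against 2.71% of all regions, and this is the Ebp region by which the set was chosen. None was wild-type-only, as 2.25% of all regions were. The remaining region, inside Fdft1, was called in 1 library, as were 21.7% of all regions. Each knockout library called 9 of the 10 regions, and wild-type replicates 1 and 2 called 9 and 8. Over the 9 regions other than that of Ebp, the count was 8 and 8 in knockout libraries and 9 and 8 in wild-type libraries (exact permutation test, two-sided, p = 1, where 0.333 is the smallest p that 2 libraries against 2 allow). Only the Fdft1 region called in 1 library varied in these counts, so no conclusion on the genotypes is drawn from the test.

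**Figure D1:**
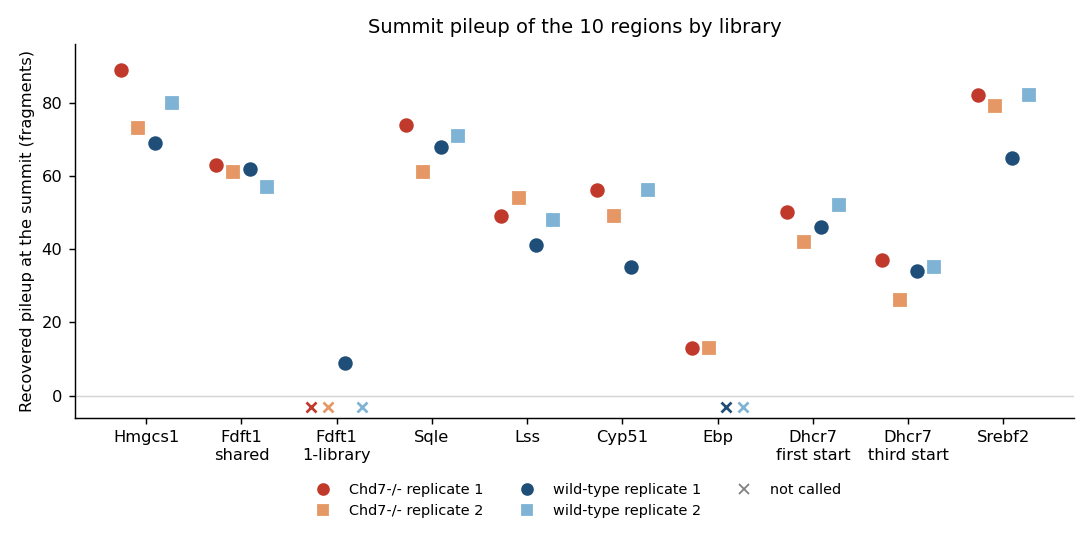
Fragment pileup at the peak summit (vertical axis, fragments) for the 10 regions, ordered along the pathway with the regulator Srebf2 last. Each point is 1 library, with the Chd7-/- libraries left of the wild-type ones, and a cross marks a library in which the region was not called. The 8 shared regions lie between 26 and 89 fragments with the genotypes intermixed at most genes, and the Ebp region stands at 13 in both knockout libraries.

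The values below are pileups, the whole number of fragments over the summit base, recovered from the deposited fold enrichment and p-value of each peak. They are counts at 1 base and do not grow with the length of a gene or region. They come from pooled cells, so more cells with an open site and a more open site in each cell cannot be told apart. Differences between genotypes were tested with limma on log2(pileup + 1), centred on the median region of each library, over the 8704 regions called in all 4 libraries with a recovered pileup in each. In that test 0 of 8704 regions passed an adjusted p of 0.05 (0%), and 758 (8.71%) had an unadjusted p below 0.05. None of the 8 shared regions passed either threshold, with adjusted p between 0.731 and 0.990. All fold changes are knockout over wild type on the log2(pileup + 1) scale.

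Hmgcs1 encodes the cytosolic HMG-CoA synthase, which makes HMG-CoA at the head of the route. Its region (chromosome 13, 119689900 to 119690716, GRCm38) spanned the start and had 89 and 73 fragments in the knockout libraries, against 69 and 80 in the wild-type libraries. The raw pileups overlapped, while the centred values did not (1.74 and 1.62 in knockout libraries, 1.49 and 1.48 in wild-type libraries). The log2 fold change was 0.20 ± 0.18 (SE), with a 95% interval from −0.21 to 0.61 and adjusted p = 0.828 by limma.

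Fdft1, squalene synthase, catalyses the first step committed to sterols, and Sqle, squalene epoxidase, the next one. The shared region of Fdft1 (chromosome 14, 63177689 to 63178325) lay inside the gene's span, 3680 bp from the annotated end at 63181687. It had 63 and 61 fragments in the knockout libraries and 62 and 57 in the wild-type libraries, and the genotypes overlapped. The log2 fold change was 0.14 ± 0.20 (SE), from −0.30 to 0.58, with limma adjusted p = 0.905. A further Fdft1 region (63164859 to 63165058), 16729 bp from that end, was called only in wild-type replicate 1, where it had 9 fragments and a fold enrichment over local background at the 16.1 percentile of that list. The Sqle region (chromosome 15, 59314589 to 59315339), over the gene end at 59315092, had 74 and 61 fragments in the knockout libraries, against 68 and 71 in the wild-type libraries. The raw wild-type pileups lay between those of the knockout. After centring, the knockout values were 1.47 and 1.37 and the wild-type values 1.46 and 1.31, and the genotypes still overlapped. The log2 fold change of Sqle was 0.03 ± 0.19 (SE), from −0.38 to 0.45 (limma adjusted p = 0.977).

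Lss, lanosterol synthase, closes the sterol rings, and Cyp51 removes a methyl group from lanosterol. The region of Lss (chromosome 10, 76531177 to 76531894), over its start, had 49 and 54 fragments in the knockout libraries and 41 and 48 in the wild-type libraries. Both knockout libraries were higher than both wild-type libraries, with a log2 fold change of 0.29 ± 0.19 (SE), from −0.14 to 0.72 (limma adjusted p = 0.733). It was 0.44 without knockout replicate 1, 0.14 without knockout replicate 2 and 0.06 when pileups were scaled by each library's lowest background. The region of Cyp51 (chromosome 5, 4104171 to 4104957), likewise over its start, had 56 and 49 fragments in the knockout libraries, against 35 and 56 in the wild-type libraries. The low value was that of wild-type replicate 1, the library of lowest background. After centring, the knockout values were 1.08 and 1.06 and the wild-type values 0.53 and 0.97. The log2 fold change of Cyp51 was 0.32 ± 0.21 (SE), from −0.15 to 0.78, the highest of the 8 regions in this fit (limma adjusted p = 0.731). It was 0.09 without wild-type replicate 1, 0.54 without wild-type replicate 2 and 0.09 when pileups were scaled by each library's lowest background in place of the median region.

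Ebp, the sterol isomerase of emopamil binding protein, acts after Cyp51 and shifts a double bond in the sterol ring. Its region (chromosome X, 8192791 to 8193100) lay inside the gene, from 412 to 721 bp downstream of the start at 8193512, and within 1 kb of an end of Porcn, the O-acyltransferase of WNT proteins. It had 13 and 13 fragments in the knockout libraries and no called peak in either wild-type library. The fold enrichments, the authors' own values, were 6.88 and 6.96 in knockout replicates 1 and 2, at the 41.9 and 43.2 percentiles of their lists. The 2 knockout summits were 6 bp apart, at 553 and 559 bp downstream of the start. The deposited −log10 q values were 8.03 and 8.11, where the weakest peaks of those lists had 1.32 and 1.34.

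The absence of a call in wild type does not give a wild-type pileup. The background under the Ebp summit was the lowest of the library in both knockout libraries. Among peaks at the lowest background, the smallest pileup called was 6 and 6 in the knockout libraries and 6 and 7 in the wild-type libraries, and 57 and 125 wild-type peaks at that background were called with 13 fragments. Of 403 regions that had 12 to 14 fragments in both knockout libraries, 263 (65.3%) were called in both wild-type libraries, 101 (25.1%) in 1 and 39 (9.68%) in neither. By the lower of its percentiles Ebp ranked 25 among the 415 knockout-only regions, whose median was 13.8. The nearest regions called in wild type were 16578 bp away at Tbc1d25 and 59136 bp away at Ftsj1, both called in all 4 libraries. The region at Tbc1d25 had 16 and 13 fragments in the knockout libraries, against 14 and 19 in the wild-type libraries.

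Dhcr7, the reductase of the last step in one branch of the route, had 2 shared regions. The first (chromosome 7, 143822673 to 143823216) lay at the start it shares head to head with Nadsyn1, an NAD synthetase gene, with 50 and 42 fragments in the knockout libraries and 46 and 52 in the wild-type libraries. The second (143829691 to 143830333) covered the third annotated start inside the gene, with 37 and 26 fragments in the knockout libraries and 34 and 35 in the wild-type libraries. In both regions the values of the genotypes overlapped. The log2 fold changes were −0.01 ± 0.18 and −0.07 ± 0.20 (SE), with limma adjusted p = 0.990 and 0.958. Their 95% intervals ran from −0.42 to 0.40 and from −0.51 to 0.38.

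Srebf2 had 1 region over its start (chromosome 15, 82146730 to 82147547), with 82 and 79 fragments in the knockout libraries and 65 and 82 in the wild-type libraries. The centred values were 1.62 and 1.74 in the knockout libraries, against 1.40 and 1.52 in the wild-type libraries, and did not overlap. The log2 fold change was 0.22 ± 0.18 (SE), from −0.19 to 0.63, with limma adjusted p = 0.809.

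The fold changes of the shared regions leaned above 0 without passing. In 6 of 8 regions the log2 fold change was above 0, against 53.5% of all tested regions, and the median was 0.17 over the 8 and 0.02 over all. With 1 library left out, 5 of 8 lay above 0 without knockout replicate 1, 8 without knockout replicate 2, 8 without wild-type replicate 1 and 4 without wild-type replicate 2. Under the scaling by lowest background, which moved the median of all regions to −0.21, 2 of the 8 lay above 0 and their median was −0.06, and 6 of the 8 stayed above the median of all regions. The centred values of the genotypes did not overlap in 4 of 8 regions, Hmgcs1, Lss, Cyp51 and Srebf2, with both knockout libraries higher in each. Among all tested regions 38.7% did not overlap, and 21.4% had both knockout libraries higher.

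**Figure D2:**
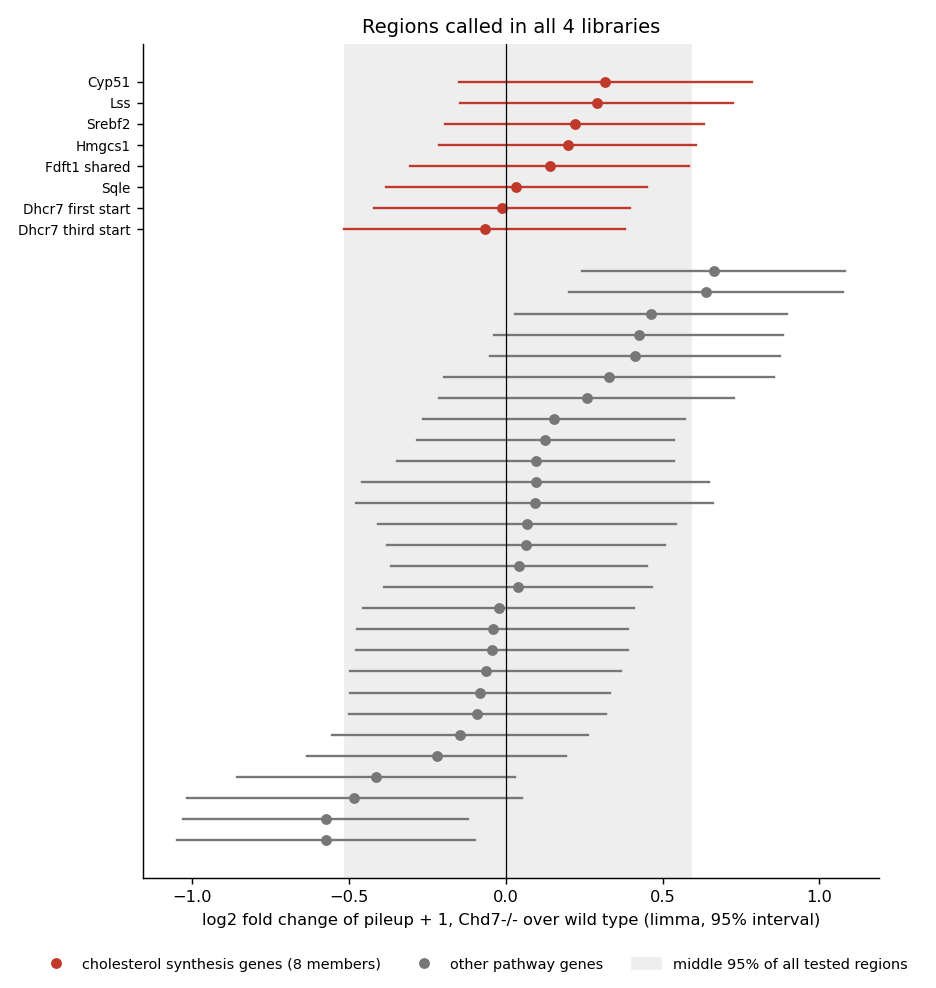
Log2 fold change of pileup + 1, Chd7-/- over wild type (horizontal axis), with 95% limma intervals, for the 8 shared regions of the cholesterol synthesis genes (red, above) and the 28 shared regions of other pathway genes (grey, below, drawn without names). The grey band holds the middle 95% of all 8704 tested regions, and the 8 points lie between −0.07 and 0.32 inside it.

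The shared regions ranked high in their lists by fold enrichment. The lowest of the 4 fold-enrichment percentiles of a region was between 75.1 and 97.4 over the 8 regions, with a median of 94.1, where the median of all regions called in all 4 libraries was 48.4 and that of such regions at gene edges was 55.7. In 6 of the 8 the lowest percentile was at least 90, against 5.79% of all tested regions and 6.39% of those at gene edges. Ranks were taken within each list. The 8 regions were 544 to 818 bp wide with a median of 735 bp, against 635 bp for all regions called in 4 libraries. By pileup, Hmgcs1 and Srebf2 stood highest, with means of 81.0 ± 11.3 and 80.5 ± 2.12 in knockout and 74.5 ± 7.78 and 73.5 ± 12.0 in wild type (SD, n = 2). These neighbours did not differ beyond their spread. Sqle (67.5 ± 9.19 in knockout, 69.5 ± 2.12 in wild type) and Fdft1 (62.0 ± 1.41 and 59.5 ± 3.54) followed, and the third-start region of Dhcr7 was the lowest of the shared ones, at 31.5 ± 7.78 in knockout and 34.5 ± 0.707 in wild type (SD, n = 2 each).

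**Figure D3:**
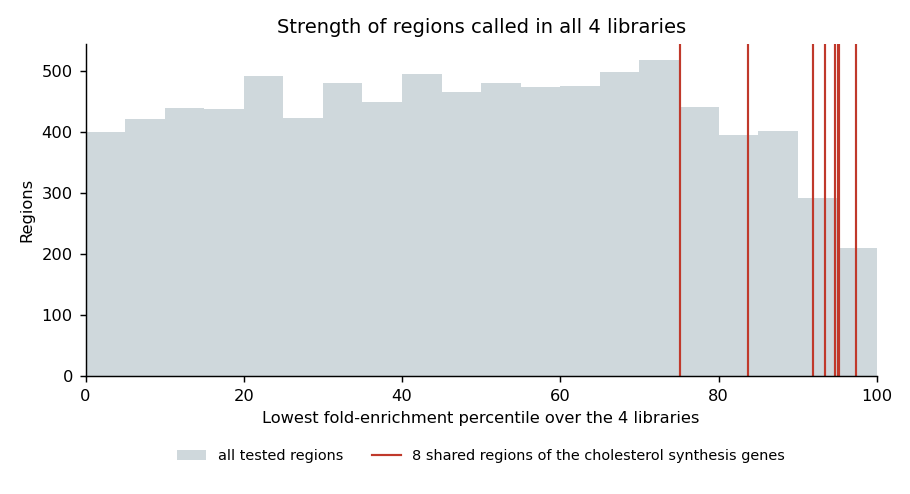
Lowest fold-enrichment percentile over the 4 libraries (horizontal axis) of the 8704 tested regions, as a count of regions per bin of 5 percentile points (bars), with a red line at each of the 8 shared regions of the cholesterol synthesis genes. The red lines begin at 75.1, and 6 of them lie at or above 90.

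Of the 6 genes with a promoter window, 5 had a region in all 4 libraries overlapping it, and Ebp had none of any class. Among 17491 protein-coding genes with such a window, 33.0% had a region called in all 4 libraries over it, and among the other pathway genes described below 17 of 23 (73.9%) did. At the 6 shared regions with a start in the table, summits lay between positions −296 and 77 from it. The summit moved by 95 to 135 bp between libraries at these regions. At Srebf2 the knockout summits lay at −188 in replicate 1 and −296 in replicate 2, and the wild-type summits at −184 and −182. Only the summit of knockout replicate 2 stood apart there, and a difference in summit position between genotypes was not tested. The Ebp summits lay downstream of the summits of all 6 regions.

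**Figure D4:**
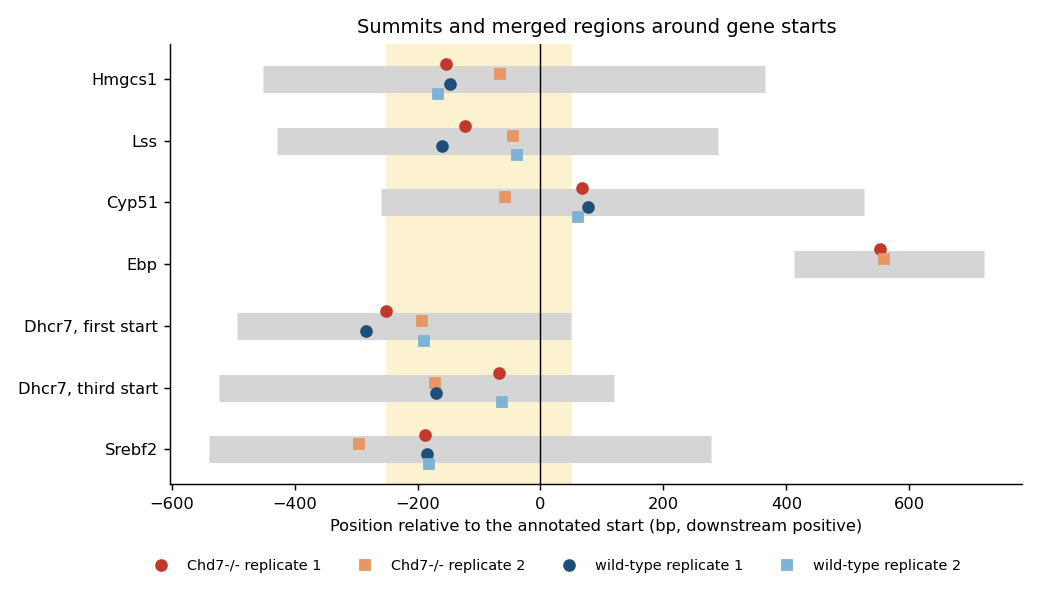
Position relative to the annotated start (horizontal axis, bp, downstream positive) of the merged regions (grey bars) and of the summit in each library (points, with the Chd7-/- libraries above the wild-type ones) for the 7 regions of genes with a start in the table. The pale band is the promoter window from 250 bp before to 50 bp after the start. The Ebp region begins 412 bp downstream and is the 1 region outside the band.

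Other genes of the pathway, 31 in number, were taken as a list for context, and 25 of them had 42 regions in all. Of these 28 were called in all 4 libraries (66.7%, against 56.8% of all regions), 3 were knockout-only (7.14%, against 2.71%) and 1 was wild-type-only (2.38%, against 2.25%). In the limma fit 0 of the 28 passed. An unadjusted p below 0.05 (limma) was found in 5 of the 28, a higher share than the 8.71% of all tested regions, and this difference was not tested. These regions went in both directions, with log2 fold changes from −0.57 at an Lbr region to 0.66 at an Abca1 region. Abca1 held more than 1 of them. The median log2 fold change over the 28 was 0.05, with 16 above 0 and 12 below, and the genotypes did not overlap in 15 of the 28, of which 8 were higher in knockout, where the shares over all tested regions were 38.7% and 21.4%. Genes without a region included Insig1, Abcg1, Mylip and Soat1. The libraries called 35 and 37 of the 42 regions in knockout and 33 and 32 in wild type (exact permutation test, two-sided, p = 0.333, the smallest possible).

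Among the other synthesis enzymes, 13 of 14 genes had a region, and 14 of their 17 regions were called in all 4 libraries. Among the strongest of the wider list were those at Npc2, a lysosomal cholesterol carrier, and Hsd17b7, a sterol ketone reductase. At Hsd17b7 (chromosome 1, 169968972 to 169969556) there were 66 and 54 fragments in the knockout libraries, against 57 and 66 in the wild-type libraries. Npc2 (chromosome 12, 84772747 to 84773556), where the region also covers an end of Isca2, had 98 and 107 fragments in the knockout libraries and 102 and 122 in the wild-type libraries. Neither region passed, with limma adjusted p = 0.972 at Hsd17b7 and 0.973 at Npc2.

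Tm7sf2, which encodes a C14 sterol reductase that acts on the product of Cyp51, had a knockout-only region over its start (chromosome 19, 6067734 to 6067990), where an end of Vps51 also lies. It had 16 and 13 fragments in the knockout libraries and no called peak in wild type, and stood at the 45.1 and 23.4 percentiles of the knockout lists. Lbr, the lamin B receptor, which carries the same reductase activity, had a wild-type-only region (chromosome 1, 181866536 to 181866924) 24329 bp from its nearest end. That region had no called peak in knockout and 9 and 13 fragments in wild type. The other knockout-only regions belonged to Abca1, the cholesterol efflux pump. One was inside the gene (chromosome 4, 53085722 to 53085973), with 12 and 9 fragments in the knockout libraries and no peak in wild type, and one lay outside it (53175830 to 53176131), with 13 and 12 fragments in the knockout libraries and likewise no peak in wild type. All of these had pileups below the 19 to 22 fragments that were the median of the 4 lists, as did Ebp.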

How the data were processed

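The 4 libraries were grouped by the genotype in their titles. The members and lists were chosen with earlier results of these data known. The authors deposited 1 peak list per library, with GRCm38 in the peak names; Bowtie2 2.2.1 and MACS2 2.1.0 are named, without a role, by the submitters' processing notes. The sources used here state no calling threshold, control, read shift, duplicate removal or blacklist. The deposited score is about 10 times the −log10 q value. Fold enrichment, as deposited, is a ratio of summit pileup to local background. The −log10 p and q values, too, are as deposited.

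Positions are on GRCm38, counted from 1. Each library's 2 mitochondrial peaks were removed. Fold, as (pileup + 1)/(background + 1), and the Poisson p-value gave a whole-number pileup for 99.99% of peaks in each library (tolerance 0.001 in −log10 p), 1 peak per library excepted. Pileups are comparable only if none was rescaled in calling. Peaks that overlapped or touched were merged, and bedtools 2.31.1 gave the same 15328 regions. A region with any overlap of a gene's span was counted as inside it. Gene ends and promoter sequences came from RefSeq tables of GRCm38.p6, and gene edge means within 1 kb of an end.

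limma 3.58.1 (R 4.3.3) with empirical Bayes and Benjamini-Hochberg adjustment over all regions gave adjusted p-values. Tables and plots were made in Python 3.11.15 with pandas 2.3.3, numpy 2.4.6, scipy 1.17.1 and matplotlib 3.10.9. The steps were tested on simulated data. Named genes were the 8 members and, of the other pathway genes, those past the threshold, those with an exclusive region and the 3 of highest percentile; some genes of the lists are not reported here by name. The alternatives were other peak sets, merging, links, pseudocount, scaling, filter, a replicate block and each library left out.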

Additional observations from a re-analysis of the deposited data

Results flagged for a closer look

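Chd7-/- and wild-type libraries can be set against each other within each labelled time, with 1 library per genotype, and 3 shared regions had differences of opposite sign at 1 h and 2 h. These are differences of centred log2(pileup + 1), knockout minus wild type, and the difference between the times was not tested. At the Fdft1 shared region the difference was −0.0883 at 1 h and 0.369 at 2 h. At the third-start region of Dhcr7 it was 0.0076 at 1 h and −0.142 at 2 h, and at the first-start region of Dhcr7 0.0068 at 1 h and −0.0286 at 2 h. The remaining 5 shared regions had positive differences at both times. The share of all tested regions with either pattern is not given here, so these counts are a description and no conclusion is drawn from them.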

How the results depend on the processing

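Of 11 alternatives for the calls, 2 were chosen after seeing the data: regions wholly inside a span or linked, which left 7 regions called in all libraries because the first-start region of Dhcr7 reaches past its gene, and a −log10 q minimum of 5 imposed on the genotype with the calls and on no other. The count of member regions called in all libraries was otherwise 8. Ebp stayed knockout-only, which supports nothing, since the call chose the gene set and most of the settings could not undo it. Leaving out 1 library gave 8 called in all, 1 knockout-only and 0 to 1 wild-type-only regions, the 1 being the Fdft1 region of wild-type replicate 1 once wild-type replicate 2 was left out. For the pathway list, −log10 q of at least 5 gave 25 and links within 50 kb gave 27 regions called in all.

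No member or pathway region passed limma under any of the 8 alternatives. Over all regions, scaling by the lowest background gave 70 calls (5 higher and 65 lower in knockout) and the replicate block gave 2. The difference between replicates 1 and 2 in knockout libraries correlated with that in wild-type libraries at 0.00217 over 8704 regions. Same-numbered libraries thus did not deviate together over the regions as a whole. Any shared effect of the labelled time would be part of that measure. Scaling by the lowest background reversed the log2 fold change of Hmgcs1 (−0.0350), the Fdft1 shared region (−0.0915), Sqle (−0.199) and Srebf2 (−0.0122). Leaving out each library in turn gave −0.0490 to 0.0272 at the first-start and −0.229 to 0.0944 at the third-start region of Dhcr7, with both above 0 without knockout replicate 2 and without wild-type replicate 1. It gave −0.0263 to 0.307 at the Fdft1 shared region, below 0 without wild-type replicate 2, and −0.0431 to 0.110 at Sqle, below 0 without knockout replicate 1 or wild-type replicate 2. The cause of these moves was not tested. With 1 library left in an arm, it was assumed to vary like the other genotype. Standard errors near 0.19 on the log2 scale, from 2 libraries per genotype, limit what could be detected.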
